A study of Macaca mulatta with 30 samples.

Results

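Testis was compared with the cerebral cortex, fibroblast, pancreas and thymus of the rhesus macaque (Macaca mulatta) on the Affymetrix rhesus macaque GeneChip. The members are the 6 arrays whose labels give testis as the tissue, of 30 arrays in all, and the other 24 arrays are those of the other 4 tissues. Each of 3 centers, Oregon, Nebraska and Yerkes, hybridized 2 technical replicates of each of 5 total RNA samples, which makes 10 arrays per center and 6 per tissue. The study asked whether the GeneChip gives the same answer at different centers, and testis was 1 of the tissues used for this.

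The labels name no treatment. According to the methods, the testis, pancreas and thymus RNA was extracted at Oregon, the cortex RNA at Yerkes and the RNA of the fibroblasts, an immortalized cell line, at Nebraska. No age is given for the animals in the sources used here. Since 1 RNA stands for each tissue, the tissue and its donor cannot be told apart, nor for cortex and fibroblast the place of extraction. The spread between arrays is that of labeling and hybridization, and the p-values from limma describe this spread and not that between animals. In a tissue RNA, fewer cells of a type and less RNA per cell cannot be told apart.

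The testis makes sperm inside seminiferous tubules. Sertoli cells line the tubules, nurse the germ cells and secrete the hormones AMH and inhibin, and AMH is known to be made in large amounts by Sertoli cells of the immature testis. Germ cells pass from spermatogonia, the stem cells and their dividing progeny, through meiosis to round spermatids and then to sperm with condensed, protamine-packed chromatin, an acrosome and a tail. Leydig cells between the tubules make testosterone from cholesterol, and flat, contractile myoid cells surround the tubules. Germ cells protect their genome from transposons with small RNAs bound by PIWI proteins (piRNAs).

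Signals are log2 RMA values (robust multi-array average), and all differences are log2 differences. In a limma model with a term for center, a probeset was called higher in testis when its signal there passed those of cortex, fibroblast, pancreas and thymus alike, with an adjusted p below 0.05 in all 4 comparisons, and its size is the difference from the highest other tissue. A probeset was called lower when it lay below all of them by the same threshold, and its size is the difference from the lowest other tissue. For genes, the probeset with the highest mean over all 30 arrays was used for each of 14132 symbols. Mean signal per array lay between 6.32 and 6.92, with the Yerkes arrays the brightest in each tissue. The testis arrays resembled each other with a mean Spearman coefficient of 0.982 (0.970 to 0.994, 15 pairs). Against testis the mean coefficient was 0.854 for thymus, 0.839 for fibroblast, 0.808 for cortex and 0.797 for pancreas, each over 36 pairs of arrays.

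The testis array of replicate 1 at Nebraska stood apart from its partner. On this array, 188 probesets were above replicate 2 by at least 1 and 18 were below it by as much. The corresponding counts in the other 14 pairs of arrays were between 4 and 47 above and between 8 and 57 below. Of 11 Sertoli cell genes, 9 were higher on replicate 1 at Nebraska, with a median difference of 0.39, where the median was 0.02 between the Oregon arrays and -0.03 between the Yerkes arrays. Of 16 cancer-testis genes, none was higher on it, with a median difference of -0.18. Without this array, 167 probesets in place of 166 were higher than every other tissue by at least 2 and 176 in place of 189 were lower by at least 0.5. Without it, the calls of MGST1, AHSP, TNF, LGALS3, CD81, PRM1 and INSIG1 were lost, at differences of -0.17, -0.20, -0.22, -0.10, 0.15, -0.18 and -0.20.

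The markers of testis were far above every other tissue. The study had picked TKTL1 for quantitative PCR because it differed strongly between tissues on these same arrays. Its difference here is therefore no independent test. The study reports that PCR and GeneChip matched on differential expression between tissues for each gene it picked, TKTL1 included. TKTL1, an X-linked transketolase-like gene, was at 11.48 and 11.46 on the testis arrays (Oregon), 11.49 and 11.55 (Nebraska), and 11.92 and 11.91 (Yerkes), and between 5.57 and 6.49 on the other 24 arrays. Pairs of testis values are given in this order of centers throughout. AMH, the Sertoli cell hormone, was at 11.77 and 11.82, 13.09 and 12.28, and 12.28 and 12.41, and between 5.89 and 7.46 elsewhere. STAR, which carries cholesterol into the mitochondria of steroid-producing cells, was at 7.94 and 7.81, 7.93 and 8.03, and 8.40 and 8.50, and between 4.87 and 5.73 elsewhere. None of the 3 genes overlapped between testis and the other tissues. This is among technical replicates of 1 RNA per tissue, and the share of all genes without overlap is not given here. Their differences from the highest other tissue were 5.58 (SE 0.06) for TKTL1, 5.30 (SE 0.13) for AMH and 2.69 (SE 0.07) for STAR, with largest adjusted p of 9.35e-35, 1.95e-25 and 1.62e-25 from limma. AMH was 5.11 above the highest other tissue without replicate 1 of Nebraska. Its difference was 5.05 (Oregon), 5.86 (Nebraska) and 4.99 (Yerkes), and it varied with the center (adjusted p = 0.00321 for the interaction from limma).

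**Figure D1:**
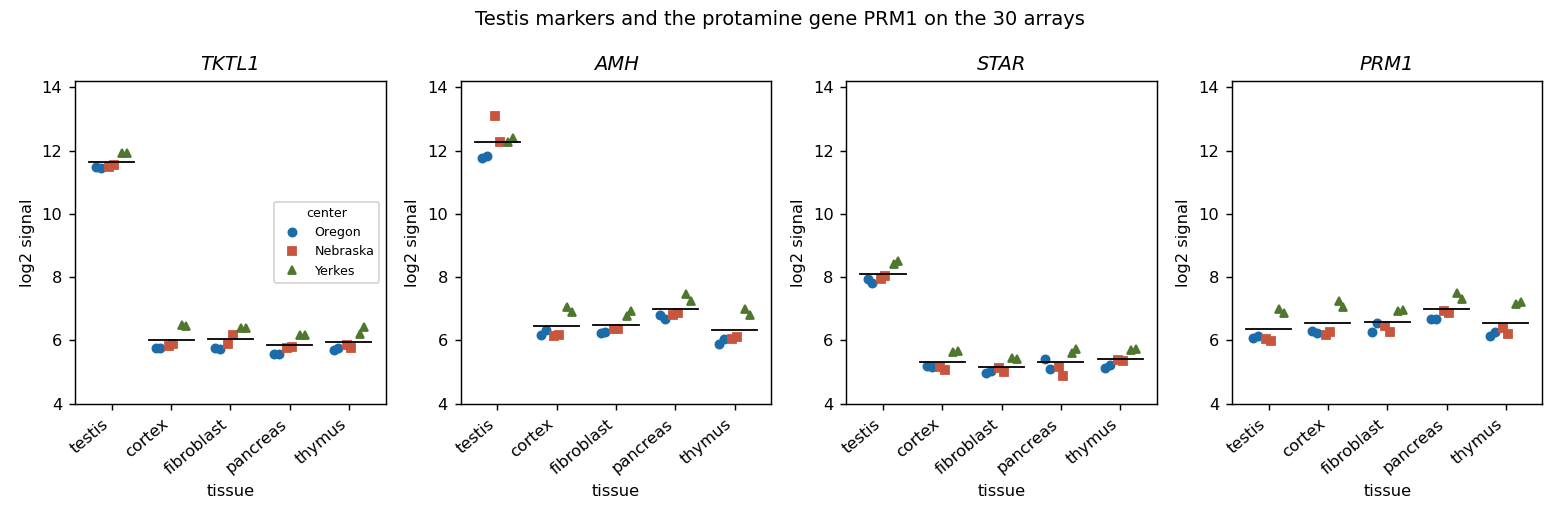
Log2 signal (y axis) of TKTL1, AMH, STAR and PRM1 for all 30 arrays grouped along the x axis by tissue, with the center as symbol and the mean of 6 arrays as line. TKTL1, AMH and STAR do not overlap between testis and the other tissues, and PRM1 lies between 5.99 and 6.997 in testis, inside the range of the other tissues or below it.

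Over all 52766 probesets, 3921 (7.43%) were higher in testis than in every other tissue. Of these, 744 (1.41%) were higher by at least 1 and 166 (0.315%) by at least 2. Among genes, these calls were made for 1372 (9.71%), 278 (1.97%) and 77 (0.545%). All 166 were above every other tissue at each center, and 127 of them by at least 2 at each. None of the 166 lay below the array median on all 6 testis arrays. Pancreas was the nearest tissue for 87 of them, cortex for 30, fibroblast for 29 and thymus for 20. Their testis difference varied with the center for 31 of 166 (18.7%), against 5.08% of all probesets. The largest difference, 7.57, belonged to a probeset without a symbol, and 58 of the 166 had none.

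On the other side, 2705 probesets (5.13%) and 700 genes (4.95%) were lower in testis than in every other tissue, with a median difference of only -0.25. Of these probesets, 1055 (39%) lay below the array median on all 30 arrays, against 25.3% of all probesets, so the count includes many dim probesets. Lower by at least 0.5 were 189 probesets (0.358%) and 78 genes (0.552%), and lower by at least 1 were 19 probesets (0.036%) and 6 genes (0.0425%). Below every other tissue at each center were 184 of the 189 and all 19. The study describes the pancreas arrays as of lower quality. Without them, 543 probesets were lower by at least 0.5 and 93 by at least 1. Against the mean of the other 4 tissues, 3023 probesets (5.73%) and 1086 genes (7.68%) were higher by at least 1 and 1243 probesets (2.36%) and 502 genes (3.55%) lower. Against single tissues, probesets higher and lower in testis by at least 2 numbered 1053 and 1604 for cortex, 1030 and 985 for fibroblast, 1205 and 451 for pancreas and 1159 and 923 for thymus. Over all genes, the median difference from the mean of the other tissues was -0.10, which is the level the lists below are set beside. Lists and members were chosen with earlier results of these data known, so their shares are no independent test.

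**Figure D2:**
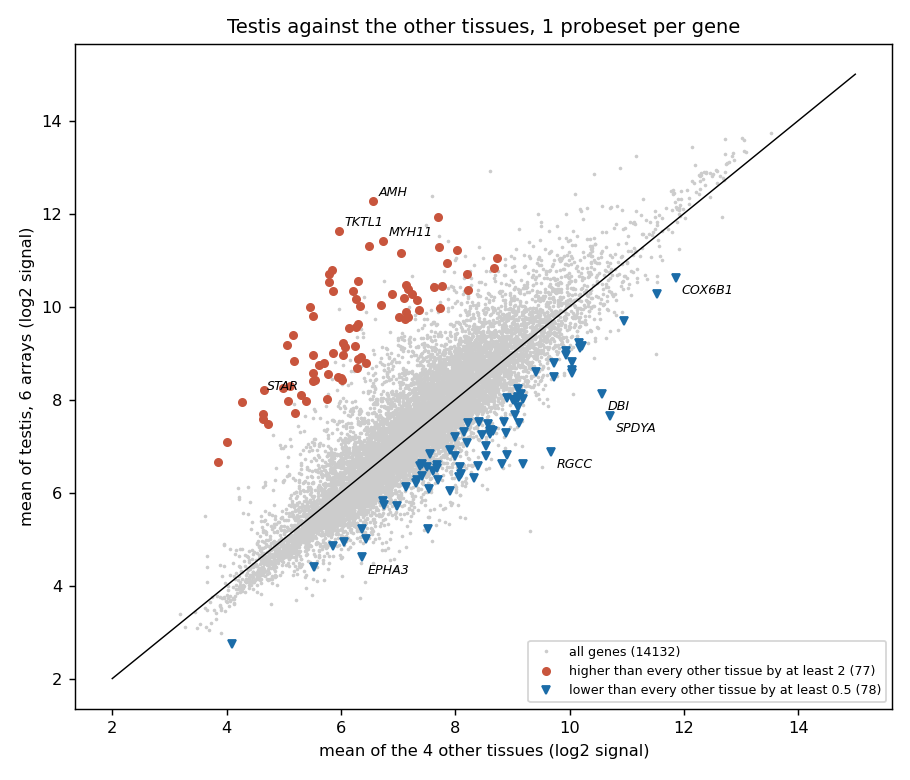
Mean log2 signal in testis (y axis) against the mean of the 4 other tissues (x axis) for 14132 genes, with equality as the line. The 77 genes that were higher than every other tissue by at least 2 lie far above the line, and the 78 that were lower by at least 0.5 lie nearer to it.

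Most of the Sertoli cell genes measured were higher in testis. Of 11 genes, 7 (63.6%, against 9.71% of all genes) were higher than every other tissue and none lower, with a median of 1.97 above the mean of the other tissues. INHA, the inhibin alpha subunit that feeds back on the pituitary, was at 10.96 and 10.93 (Oregon), 11.74 and 10.84 (Nebraska) and 11.13 and 11.28 (Yerkes), and at most at 8.39 elsewhere. It was 3.29 (SE 0.12, adjusted p = 9.4e-22 from limma) above the highest other tissue and 3.14 without replicate 1 of Nebraska. The transcription factor WT1, needed to form the gonad, was 2.71 (SE 0.12) above the next tissue on its main probeset and 4.01 on its other. GATA4, a regulator of gonadal genes, was higher by 1.35 (SE 0.12) on its main probeset and by 1.91 and 1.65 on the other two. Without replicate 1 of Nebraska, WT1 was higher by 2.59 and GATA4 by 1.17.

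SOX9, which drives Sertoli cell fate, varied more between its arrays. It was at 7.98 and 7.99 (Oregon), 9.96 and 8.55 (Nebraska) and 8.998 and 9.03 (Yerkes). Pancreas reached into this range, with 8.10 as its highest value, and the other tissues did not. Its difference was 1.26 (SE 0.17, adjusted p = 5.92e-08 from limma) and 0.99 without replicate 1 of Nebraska. NR0B1, a nuclear receptor of the gonad and adrenal, was higher by 0.88 (SE 0.09), and DHH, a hedgehog signal from Sertoli to Leydig cells, by 0.63 (SE 0.09). GATA1, KITLG, INHBB and GDNF, the other 4 genes of the list, were not called. INHBB and GDNF, at 5.73 and 5.17, lay below the array median on all 6 testis arrays.

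Several genes of steroid synthesis were higher in testis. Of 11 genes of Leydig cells and steroid synthesis, 6 (54.5%, against 9.71% of all genes) were higher in testis and none lower. The list median was 0.88 above the mean of the other tissues. CYP17A1, which opens the way from progestins to androgens, was at 9.40 and 9.33 (Oregon), 9.30 and 9.61 (Nebraska) and 9.71 and 9.85 (Yerkes), and at most at 7.17 elsewhere. It was thus above each other array, by 2.87 (SE 0.08, adjusted p = 7.83e-25 from limma) over pancreas, the next tissue. The other CYP17A1 probeset, at 4.19 in testis, was not called, with a difference of -0.16 from the highest other tissue. HSD3B2, which forms progesterone and androstenedione, was at 7.94 ± 0.24 (SD, n = 6 arrays) and 3.33 (SE 0.11) above the next tissue. FDXR, which passes electrons to mitochondrial steroid hydroxylases, was higher by 2.46 (SE 0.08) on its main probeset and 2.24 on its other.

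The remaining members of this list were less particular to testis. DLK1, an imprinted gene of immature steroidogenic and other cells, was 1.59 (SE 0.10) above pancreas and 5.02 above cortex. NR5A1, the nuclear receptor that switches on steroid genes, was higher by 0.43 (SE 0.10) and by 0.31 without replicate 1 of Nebraska, and its arrays overlapped with other tissues. CYB5A, a cofactor of the CYP17A1 lyase step, was at 10.31 in testis and 11.39 in thymus. FDX1, POR, TSPO and CYP19A1 were not called either. MYH11, the smooth muscle myosin heavy chain and a marker of myoid cells and vessels, was at 11.30 and 11.26, 11.43 and 11.23, and 11.63 and 11.64 in testis and at most at 7.86 elsewhere. It was the only one called of 5 myoid genes (20%, against 9.71% of all genes), by 3.92 (SE 0.08). Of its other 3 probesets, 2 were higher by 3.77 and 3.38. TAGLN, another smooth muscle gene, was at 8.53 in testis and 12.99 in fibroblast.

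Most piRNA pathway genes and 12 of 23 meiosis genes were higher in testis, and most spermatogonial genes and most genes of spermatids and sperm were not. Of 23 spermatogonial genes 8 were higher, of 23 meiosis genes 12, of 16 piRNA pathway genes 11, and no gene of these 3 lists was lower. TKTL1, which the study picked from these same arrays, is among the 8. These are 34.8%, 52.2% and 68.8% of the genes measured, against 9.71% of all genes. The medians against the mean of the other tissues were 0.40, 0.52 and 1.01. Of 33 spermatid and sperm genes, 2 (6.06%, against 9.71% of all genes) were higher and 5 (15.2%, against 4.95%) lower, with a median of -0.28. With no center term 1 was higher and none lower. With tissue and center as a random block, or with the mean of the 2 arrays per tissue and center, 2 were higher and 2 lower. The median testis level was 6.98, 6.46 and 6.93 in the first 3 lists and 5.97 in the last. Below the array median on all 6 testis arrays were 21 of the 33 spermatid and sperm genes, against 6, 9 and 3 in the other lists. The mostly dim olfactory and taste receptor genes had a like median of -0.30, with 11.8% lower. The part of dim signal in these values was not tested.

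Among spermatogonial genes, DAZL, an RNA-binding protein of germ cells, was at 7.89 and 7.80, 7.72 and 7.80, and 8.32 and 8.27 at the 3 centers and at most at 5.86 elsewhere. It was higher by 2.82 (SE 0.10, adjusted p = 2.36e-21 from limma), and 2 of its other 3 probesets by 3.46 and 1.14. LIN28B, which blocks the maturation of let-7 miRNAs, was higher by 1.63 (SE 0.09) and the homeobox gene RHOXF1 by 1.17 (SE 0.07). The other LIN28B probeset, at 5.36 in testis, was not called. Other genes used as markers of spermatogonia were higher elsewhere. The ubiquitin hydrolase UCHL1 was at 8.24 in testis and 12.62 in cortex, and the receptor KIT at 7.44 in testis and 8.65 in cortex.

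PIWIL4, a PIWI protein of fetal and spermatogonial cells, was at 8.42 and 8.38, 8.06 and 8.07, and 8.43 and 8.47, and at most at 5.97 elsewhere, a difference of 2.82 (SE 0.11, adjusted p = 2.39e-20 from limma). MAEL and ASZ1, proteins of the granules where piRNAs are made, were higher by 2.10 (SE 0.09) and 1.71 (SE 0.10). The Tudor domain genes TDRD1, TDRD9 and TDRD6 were higher by 1.60, 1.41 and 1.21, and STK31, a Tudor protein outside the list, by 3.87 (SE 0.11). HENMT1, which methylates the ends of piRNAs, was at 8.62 in testis and 7.60 in cortex, a difference of 1.01 (SE 0.08). PIWIL2 was higher by 0.48 (SE 0.07), and here the arrays of testis and pancreas overlapped.

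Meiosis genes were called often, at levels that varied. Of 23 genes, 9 lay below the array median on all 6 testis arrays and 11 above it on all 6. SYCP1, of the transverse filament of the synaptonemal complex, was at 5.56 and 5.62 (Oregon), 4.94 and 5.54 (Nebraska) and 5.52 and 5.86 (Yerkes). All 6 values were above the 24 others, which reached 4.37, but below the median of their own arrays. Its difference was 1.66 (SE 0.13, adjusted p = 1.49e-12 from limma) and 1.75 without replicate 1 of Nebraska. SYCP3, of the axis of the same complex, was at 6.64 ± 0.14 (SD, n = 6 arrays) and higher by 0.88 (SE 0.14). TEX12, the cyclin CCNB3, the cohesin subunits STAG3 and SMC1B and the intercellular bridge gene TEX14 were higher by 1.61, 1.34, 1.17, 1.01 and 1.03. Their levels were between 6.12 for TEX12 and 8.69 for STAG3.

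The late genes gave another picture. ZPBP, an acrosomal protein that binds the egg coat, was at 7.72 and 7.62, 7.56 and 7.60, and 7.87 and 7.93 in testis and at most at 5.92 elsewhere. It was higher by 2.16 (SE 0.09, adjusted p = 8.39e-20 from limma) and was the only member of its list at such a distance. BRDT, a bromodomain protein of spermatocytes and spermatids, was higher by 0.46 (SE 0.14) at a level of 4.79, with overlap between testis and other tissues. The protamine gene PRM1 was at 6.06 and 6.15 (Oregon), 6.04 and 5.99 (Nebraska) and 6.997 and 6.86 (Yerkes), and between 6.15 and 7.48 in the other tissues. It was called lower, with a difference of -0.19 (SE 0.08, adjusted p = 0.0267 from limma) from cortex, a call that was lost without replicate 1 of Nebraska at a like difference of -0.18. PGK2, the phosphoglycerate kinase of spermatids, was at 5.60 ± 0.32 (SD, n = 6 arrays) and differed by -0.30 (SE 0.09) from cortex, and its arrays overlapped with other tissues. CATSPER3, PDHA2 and SPACA7, at 5.60, 4.53 and 5.11, were the other genes called lower, each by under 0.25. The acrosin gene ACR, at 5.69, was not called. ADAM18, a sperm surface protein, was at 7.74 in testis and 10.40 in fibroblast, and a dimmer probeset of it was called higher, by 0.43.

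**Figure D3:**
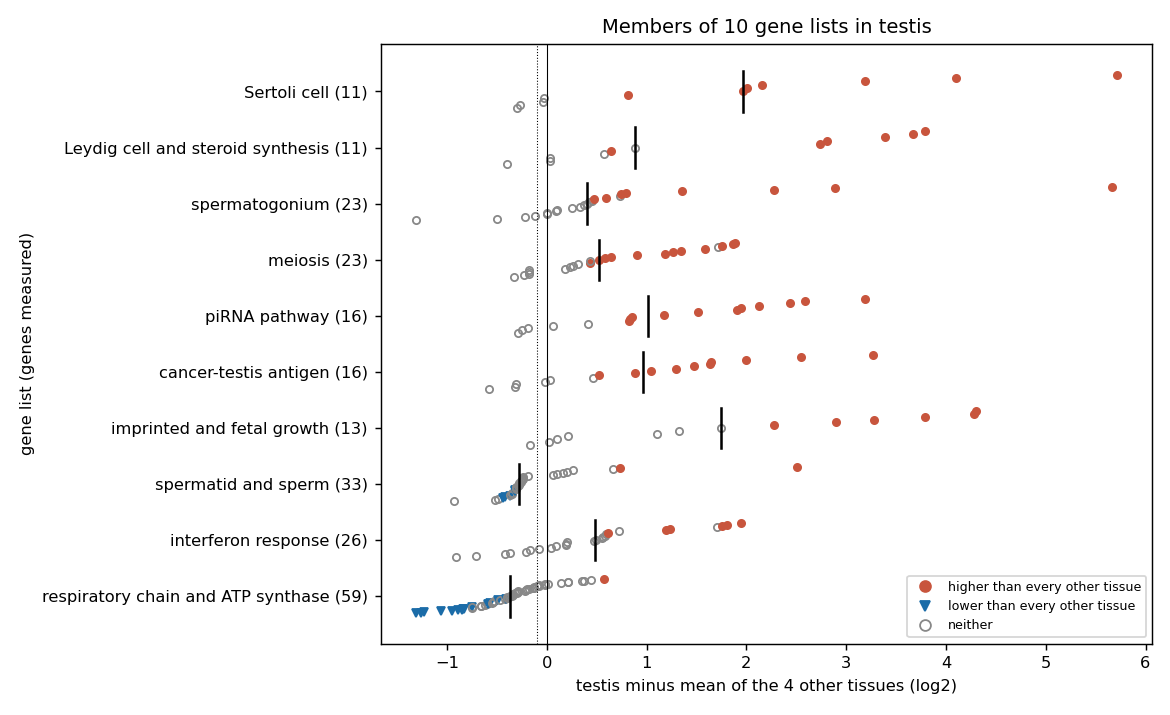
Difference of testis from the mean of the 4 other tissues (x axis, log2) for each measured gene of 10 lists (y axis), filled by call, with the list median as a short line and the median of all genes as a dotted line. The medians of the Sertoli, piRNA and imprinted lists are 1.97, 1.01 and 1.74, and that of the spermatid and sperm list is -0.28.

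Cancer-testis antigens, proteins of germ cells that tumors also make, were mostly on the higher side. Of 16 measured of 60 listed, 10 (62.5%, against 9.71% of all genes) were higher and none lower. The list median was 0.96 above the mean of the other tissues. MAGEB2 was at 8.18 and 8.14, 8.05 and 8.19, and 8.45 and 8.48 in testis, at most at 5.73 elsewhere and higher by 3.09 (SE 0.12, adjusted p = 5.11e-21 from limma). FATE1, PAGE1 and MAGEC2 were higher by 2.16, 1.85 and 1.60. PAGE4 was the exception in level, at 7.90 in testis and 9.97 in fibroblast.

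Several imprinted and fetal growth genes were bright in testis and higher than elsewhere. Of 13 measured, 6 (46.2%, against 9.71% of all genes) were higher in testis than in every other tissue and none lower. The list median was 1.74 above the mean of the other tissues. H19, an imprinted noncoding RNA, was at 12.64 and 12.65, 12.93 and 12.98, and 13.16 and 13.10 in testis and between 5.89 and 12.34 elsewhere. Pancreas was nearest, 0.90 (SE 0.09, adjusted p = 3.63e-10 from limma) below testis, and fibroblast was 6.50 below it. PEG3, a paternally expressed zinc finger gene, was at 11.77 ± 0.42 (SD, n = 6 arrays) and 1.19 (SE 0.12) above cortex. PLAGL1, a zinc finger regulator of growth, was higher by 2.35 (SE 0.09) and MEST by 1.43 (SE 0.12). IGF2, the fetal growth factor, was at 9.44 and 9.36 (Oregon), 11.38 and 9.17 (Nebraska) and 9.59 and 9.47 (Yerkes). It was higher by 1.11 (SE 0.24) with all arrays and by 0.71 without replicate 1 of Nebraska, and a pancreas array reached 9.21.

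Of 29 genes of gonadal hormone and growth factor signalling, 9 (31%, against 9.71% of all genes) were higher and none lower. AMH, INHA and DHH are among them and were also counted with the Sertoli cell genes. AMHR2, the receptor of AMH, was at 8.37 and 8.26 (Oregon), 9.19 and 9.14 (Nebraska) and 9.48 and 9.44 (Yerkes) and at most at 7.55 elsewhere. All 6 values were above the others, by 1.98 (SE 0.10, adjusted p = 3.29e-18 from limma) over the next tissue, but the difference varied with the center (1.52, 2.44 and 2.00, adjusted p = 0.000317 for the interaction from limma). IGF1, a growth factor of many tissues, was higher by 2.00 (SE 0.06), the hedgehog effector GLI1 by 1.01 (SE 0.10; 0.88 without replicate 1 of Nebraska) and TGFBR3, a coreceptor of inhibin, by 0.90 (SE 0.06). Of 14 retinoid genes, ALDH1A2, which makes retinoic acid, was the only one higher (7.14%, against 9.71% of all genes), by 1.43 (SE 0.07). CRABP2, which binds retinoic acid, was called lower, with a difference of -0.26 (SE 0.09) from cortex and -3.90 from fibroblast.

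Some of the highest genes belonged to no testis list. DHRS2, a short-chain dehydrogenase, was at 10.65 and 10.61, 10.72 and 10.76, and 11.01 and 11.02 in testis and at most at 6.71 elsewhere, a difference of 4.49 (SE 0.08, adjusted p = 1.14e-29 from limma). AMBP and APOA1, known as plasma proteins of the liver, were higher by 4.30 (SE 0.07) and 4.03 (SE 0.09). They were the only 2 called (9.52%, near the 9.71% of all genes) of 21 liver-type plasma protein genes, whose median was -0.15, and a second AMBP probeset, at 5.80, was not called. The clotting factor F5 was higher by 3.29 (SE 0.09). LHX9, a homeobox factor of the forming gonad, was higher by 3.85 (SE 0.13), PWWP3B by 3.55, SUSD3 by 3.49 and TSPYL6 by 3.49. Another LHX9 probeset was higher by 1.68, and those at 6.14 and 5.47 in testis were not called. BDKRB1, the bradykinin receptor, was higher by 3.52 (SE 0.07) on its main probeset, but its other probeset was at 5.56 in testis, with a difference of -4.30 from the highest other tissue.

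Of 15 glutathione transferase genes, which conjugate electrophiles and in part serve steroid synthesis, 2 were higher and 2 lower. Each count is 13.3% of the list, against 9.71% of all genes higher and 4.95% lower. GSTA3, whose product also isomerizes steroid intermediates, was at 10.10 and 10.20, 10.15 and 10.39, and 10.60 and 10.60 in testis and at most at 7.76 elsewhere. It was higher by 3.10 (SE 0.08, adjusted p = 5.83e-25 from limma) and a second probeset by 2.62. GSTM3 was at 12.39 in testis and 10.58 in cortex, a difference of 1.81 (SE 0.08), and not called on a dimmer probeset. GSTK1 and MGST1 were lower, MGST1 with a difference of -0.19 (SE 0.08) and overlapping arrays, but neither was called without replicate 1 of Nebraska, without replicate 1 of Yerkes or with a random block. Without replicate 1 of Oregon or replicate 2 of Nebraska, 1 of the 2 was called.

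Marker genes of thymocytes, acinar cells and neurons were far below the level of their own tissue in testis. The mean of 14 thymocyte genes was between 7.30 and 7.86 on the testis arrays, above the 5.98 to 7.01 of cortex, fibroblast and pancreas and below the 10.69 to 11.26 of thymus. None of these genes was called higher. CD8A of cytotoxic T cells and their precursors was at 7.93 in testis, 12.45 in thymus and 6.89 in pancreas. RAG2, which rearranges antigen receptor genes, was at 5.90 in testis, 10.12 in thymus and at most at 5.41 on the remaining arrays. CD1E, a lipid-presenting protein, was at 12.12 in testis and 11.96 in thymus on its main probeset, but its other two were at 6.19 and 6.49 in testis, with differences of -3.64 and -4.33 from the highest other tissue. The mean of 11 acinar cell genes was between 6.18 and 6.99 in testis and between 14.02 and 14.55 in pancreas. PLA2G1B, a secreted phospholipase, was the exception, with 11.30 and 11.22, 11.62 and 11.46, and 11.72 and 11.77 in testis, 14.49 in pancreas and at most 6.17 in cortex, fibroblast and thymus. The defining trypsinogen PRSS2 was at 5.33 in testis. The mean of 7 neuron genes was between 6.43 and 6.96 in testis and between 10.83 and 11.42 in cortex. NEFH, a neurofilament, was at 9.46 in testis and 8.83 in cortex and was the only one of them called, by 0.63 (SE 0.08). This is 14.3% of the list, against 9.71% of all genes. Means of 14 epididymis genes were between 5.64 and 6.52, and of these 2 (14.3%, against 4.95% of all genes) were lower and none higher. Of the 14, 9 lay below the array median on all 6 testis arrays. None of the 14 was lower with no center term or after quantile normalization of all arrays. No gene of the macrophage list (11 genes, 6.89 to 7.37 in testis and 7.60 to 8.08 in thymus) or the endothelium list (8 genes, 6.95 to 7.54 in testis and 7.16 to 7.92 in pancreas) was called. Of 4 red blood cell genes 1, AHSP, was lower (25%, against 4.95% of all genes). This call was lost without replicate 1 of Nebraska, either Oregon array or replicate 2 of Yerkes. The part of other cells in the values above was not tested.

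**Figure D4:**
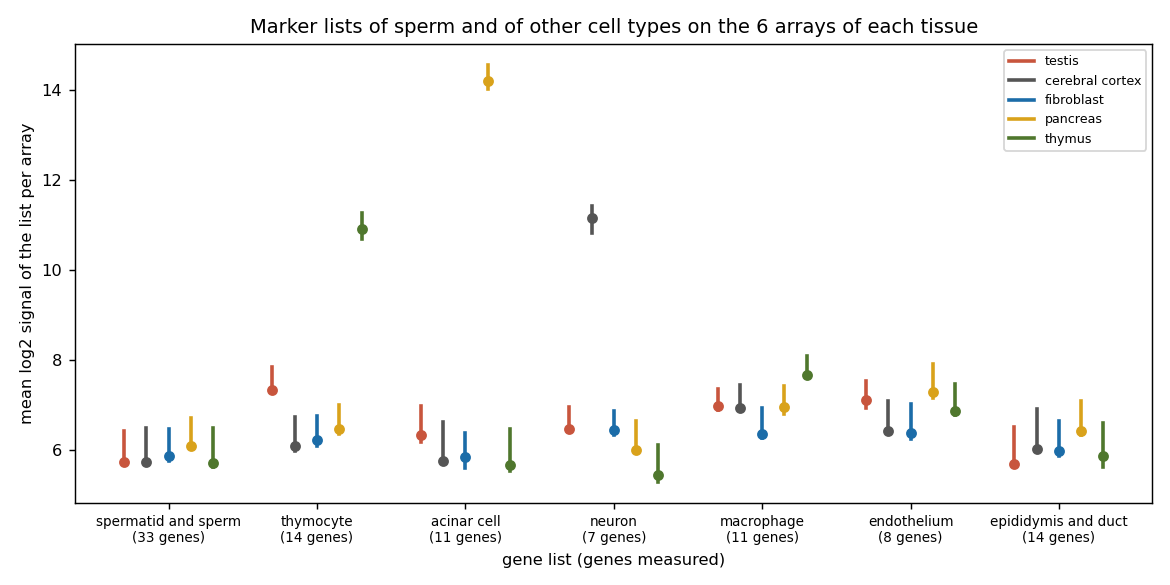
Mean log2 signal per array (y axis) of the spermatid and sperm list and of 6 lists of other cell types (x axis), as the lowest, median and highest of 6 arrays of each tissue. Thymocyte genes lie between 7.30 and 7.86 in testis and from 10.69 in thymus, and spermatid and sperm genes between 5.68 and 6.42 in testis and between 5.63 and 6.49 in thymus.

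Genes below every other tissue were fewer and nearer to the next tissue. The lowest by symbol was RGCC, a regulator of the cell cycle, at 6.72 and 6.75 (Oregon), 6.70 and 6.66 (Nebraska) and 7.17 and 7.23 (Yerkes), and between 8.20 and 10.69 in the other tissues. All 6 values were below the 24 others, with a difference of -1.69 (SE 0.07, adjusted p = 3.69e-19 from limma) from pancreas and -3.54 from cortex. DBI, the acyl-CoA binding protein that also acts at the mitochondrial benzodiazepine site, was at 8.002 and 8.03, 7.87 and 8.22, and 8.21 and 8.43 in testis and at least at 9.34 elsewhere. Its difference was -1.40 (SE 0.07) from cortex and -4.39 from fibroblast, and its other probeset was also called lower.

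CYSTM1, a small transmembrane protein, was at 6.57 ± 0.28 (SD, n = 6 arrays) and differed by -1.24 (SE 0.07, adjusted p = 7.22e-17 from limma) from thymus. SPDYA, an activator of cyclin-dependent kinases known for its part in meiosis, was at 7.65 in testis, 9.01 in thymus and 13.45 in cortex, a difference of -1.36 (SE 0.08) from thymus. On its other probeset SPDYA was at 5.47 and not called. SEC11C, of the signal peptidase complex, differed by -1.09 (SE 0.11) on the main probeset and was not called on the other two. Among genes lower by at least 0.5, 43 had further probesets, and of these 83 probesets 35 were called lower and 5 higher. Among genes higher by at least 2, 34 had 56 further probesets, with 31 called higher and 1 lower.

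The next genes in order lay between -0.99 and -0.82 of the nearest tissue. PCYT2, of phosphatidylethanolamine synthesis, differed by -0.99, the homeobox gene MEIS2 by -0.93, PARM1 by -0.89, the lipase MGLL by -0.85 and the kinase HIPK2 by -0.82. For MGLL, cortex was at 11.01 and testis at 6.61, and its other probeset was not called. EPHA3, an ephrin receptor, differed by -0.83 at a level of 4.61, below the median of each testis array, and its other probeset was not called. HIBADH, of valine breakdown, differed by -0.88 on its main probeset, while its other two were called higher, by 0.66 and 1.04.

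**Figure D5:**
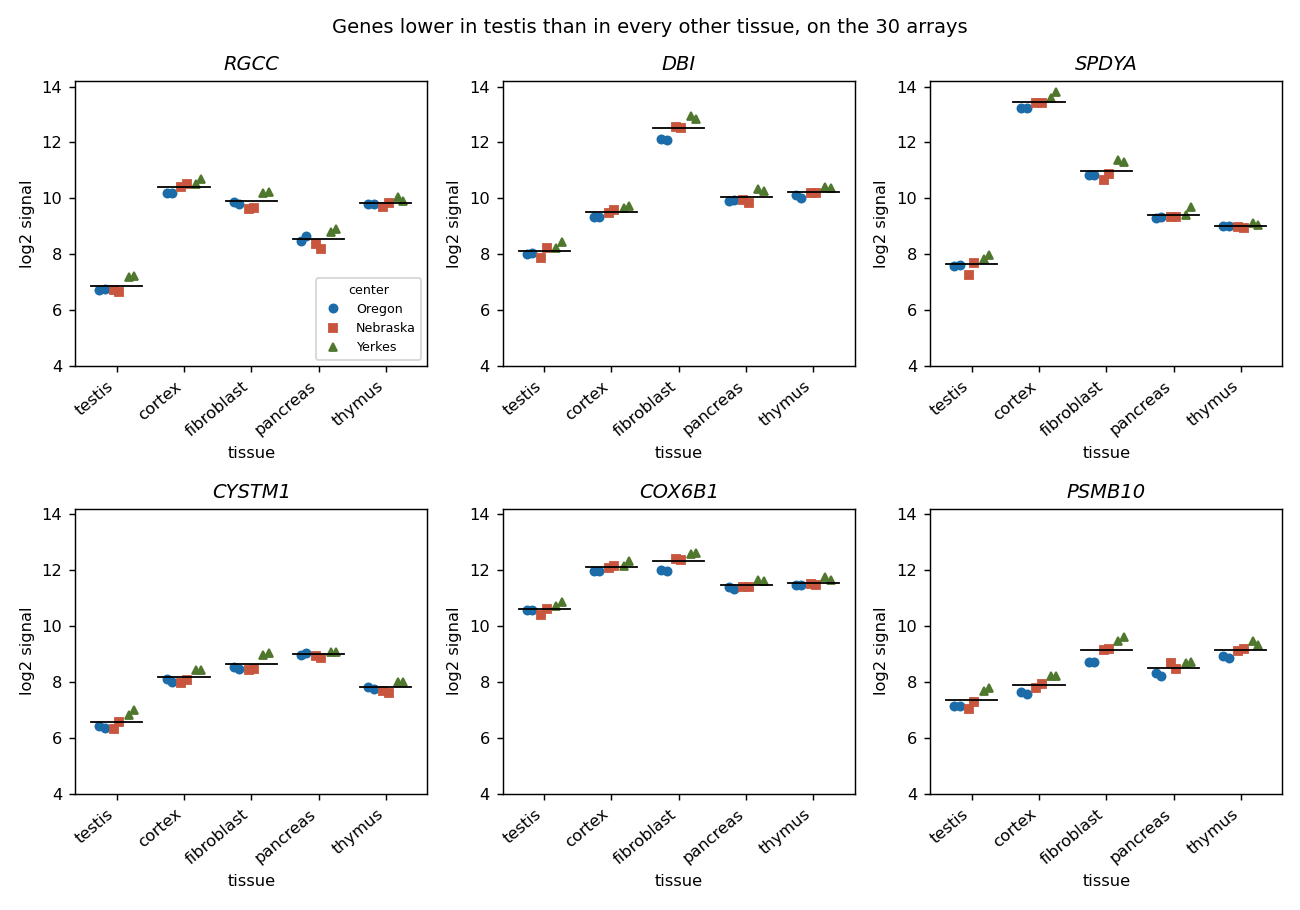
Log2 signal (y axis) of 6 genes lower in testis for all 30 arrays grouped along the x axis by tissue, with the center as symbol and the mean of 6 arrays as line. RGCC, DBI, SPDYA, CYSTM1 and COX6B1 do not overlap between testis and the other tissues, and PSMB10 does, since a cortex array is at 7.58.

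Subunits of the mitochondrial respiratory chain recurred among the lower genes, and this list was therefore added after the values were seen. Of 59 genes of the respiratory chain and ATP synthase, 14 (23.7%, against 4.95% of all genes) were lower in testis than in every other tissue and 1 was higher, with a median of -0.37 against the mean of the other tissues. COX6B1, a subunit of cytochrome c oxidase, was at 10.58 and 10.59 (Oregon), 10.41 and 10.60 (Nebraska) and 10.71 and 10.86 (Yerkes) and between 11.33 and 12.62 elsewhere. It differed by -0.83 (SE 0.07, adjusted p = 7.66e-13 from limma) from pancreas. UQCRQ of complex III differed by -0.94 (SE 0.09), and TMEM126A, needed to assemble complex I, by -0.92 (SE 0.07). COX5A, ATP5F1D, UQCR11 and NDUFS7 differed by -0.72, -0.68, -0.60 and -0.60. SDHA, of complex II, was higher by 0.27 (SE 0.07). The arrays of NDUFS7 and SDHA overlapped with other tissues, and the other probesets of NDUFS7 and UQCR11 and 1 of the other 2 of COX5A were not called. All 59 genes were above the array median on all 6 testis arrays. Over the alternatives, the count of lower genes was between 6 without a center term and 35 without the pancreas arrays.

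The other lists added after the values were seen were called in 1 direction or in both. Of 62 mitochondrial ribosome genes, 8 (12.9%, against 4.95% of all genes) were lower and 1 higher. MRPL52 was at -0.56 (SE 0.08) and MRPL47 at 0.75 (SE 0.08). Of 34 cytosolic ribosome genes, 2 (5.88%, against 9.71% of all genes) were higher and none lower. Zinc finger genes named ZNF with a number, many of which repress transcription, were higher in 65 of 284 cases (22.9%, against 9.71% of all genes) and lower in 7. Without a center term 28 of them were higher, where the count over all probesets went from 3921 to 2151. ZNF275, at 10.35 in testis, was higher by 2.05 (SE 0.08). Of 35 ubiquitin-specific proteases, 9 (25.7%, against 9.71% of all genes) were higher, led by USP13 at 2.36 (SE 0.09), and none was lower. Without a center term, 4 of the proteases were higher. Of 170 olfactory and taste receptor genes, 20 (11.8%, against 4.95% of all genes) were lower and none higher, but 142 of the 170 lay below the array median on all 6 testis arrays, and none was lower without a center term. Without replicate 1 of Oregon 9 of these genes were lower, without replicate 2 of Oregon 12, without replicate 1 of Yerkes 30, and with a random block 4.

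Immune genes were called in both directions. Of 26 interferon response genes, 6 (23.1%, against 9.71% of all genes) were higher and none lower. MX1, an antiviral GTPase, was at 8.86 and 8.82, 8.84 and 8.94, and 9.25 and 9.43 in testis and at most at 8.05 elsewhere, a difference of 1.43 (SE 0.07, adjusted p = 3.84e-18 from limma). IFI44 and BST2 were higher by 0.82 (SE 0.06) and 0.77 (SE 0.06), while IRF7, a driver of interferon genes, was at 6.62 in testis and 9.17 in thymus. The other IFI44 probeset was not called, with a difference of -0.29 from the highest other tissue. Of 24 genes of the major histocompatibility complex and antigen processing, none was higher and 2 (8.33%, against 4.95% of all genes) were lower. They were PSMB10, a subunit of the immunoproteasome, at -0.56 (SE 0.07, adjusted p = 1.78e-08 from limma), and CIITA, the activator of class II genes, at -0.20. CIITA was not called without replicate 2 of Oregon, without replicate 2 of Yerkes or with a random block, and the other PSMB10 probeset was not called. Of 20 NF-kB and inflammatory genes 1, TNF, was lower and 1, TNFAIP3, higher, by 0.50 (SE 0.10). Each is 5% of the list, against 4.95% of all genes lower and 9.71% higher. But TNFAIP3 was not called on its other 4 probesets and turned to -0.062 after quantile normalization of all arrays. TNF was also not called without replicate 2 of Oregon. Of 22 immediate early genes 2 (9.09%, against 4.95% of all genes), GADD45B and IER2, were lower. KLF2 was higher (4.55%, against 9.71% of all genes). Over the alternatives, the lower genes of this list numbered between 0 with no center term and 6 without the pancreas arrays. GADD45B was also called lower on another probeset, with a difference of -0.30, and not called on a further one, at 6.96 in testis. The other KLF2 probeset, with a difference of -0.25 from the highest other tissue, was not called.

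The remaining lists had few calls. None of 15 proliferation genes was called, and MKI67 was at 6.99 in testis and 10.56 in thymus. Of 15 genes of cholesterol synthesis and uptake, PMVK, INSIG1 and EBP were lower (20%, against 4.95% of all genes) and none higher. None of the 3 kept its call without a center term. PMVK, a kinase of the mevalonate pathway, differed by -0.44 (SE 0.07). Of 29 junction and cytoskeleton genes, ANXA3 and CD81 were higher and ANXA1 and LGALS3 lower. Each pair is 6.9% of the list, against 9.71% of all genes higher and 4.95% lower. Without replicate 1 of Nebraska, CD81 and LGALS3 were not called, and the other CD81 probeset was not called. ANXA1, an annexin, was at 6.97 in testis and 11.58 in fibroblast. Of 9 metallothionein and iron genes, the iron exporter SLC40A1 was higher (11.1%, against 9.71% of all genes), by 0.39 (SE 0.08), and none lower. The other SLC40A1 probeset was not called. Of 15 X-linked genes and their autosomal copies, TKTL1, also counted with the spermatogonial genes, was higher (6.67%, against 9.71% of all genes). The germ cell copies PGK2 and PDHA2 were lower (13.3%, against 4.95% of all genes). Over the alternatives, the lower genes of this list numbered between 0 with no center term and 5 without the pancreas arrays.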

How the data were processed

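Total RNA of 5 rhesus macaque sources was hybridized as 30 arrays. The authors deposited log2 values that, per the methods, had been background corrected with MAS 5.0, quantile normalized within each center and summarized by RMA over all arrays, and none of this was repeated. Versions are not given in the sources used here. The number of arrays limits the precision. Of 52865 probesets, 99 AFFX controls were left out and 52766 were tested. Symbols came from the platform annotation: 24956 probesets carried 1 symbol, 361 several and 27449 none, and 24616 matched a RefSeq gene ID. Tissue and center were fitted with limma 3.58.1 in R 4.3.3 (23 residual degrees of freedom), with Benjamini-Hochberg adjustment per contrast over all probesets. Arrays of 1 replicate number deviated together (correlation over 0.1) in 3 of 10 tissue pairs at Yerkes and in none at the other centers, so no pairing was used. Calls were tested on simulated data. Named genes were the 15 largest per direction on the same side at each center, the 3 markers and up to 5 called members per list of 29 lists. Members and lists were chosen with earlier results of these data known, and 6 lists and further genes after values were seen. Alternatives were the normalization, center term, dim probesets, replicate block, array means, random block, interaction, mean of all probesets and leaving out centers, testis arrays or pancreas. No sequences are shown.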

Additional observations from a re-analysis of the deposited data

Results flagged for a closer look

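Of 127 genes looked at, 2 had 1 testis array far from the other 5. Center was not removed from these values, and the brighter Yerkes arrays widen the range. The 1 in 20 groups (6.35 genes) that chance flags therefore cannot be set beside this count. For IGF2, replicate 1 of Nebraska was at 11.38 and the other 5 between 9.17 and 9.59, a gap of 0.81 of the whole range. For SYCP1, the same array was at 4.94 and the others between 5.52 and 5.86, a gap of 0.634 of the range. The Sertoli cell genes SOX9, GATA4, INHA and AMH were highest on this array as well, at 9.96, 10.05, 11.74 and 13.09. Further genes above replicate 2 of Nebraska by over 1 on it were TLN1, MAZ, SRRM2 and HMGA1, by 1.89, 1.72, 1.63 and 1.43, where the Oregon and Yerkes pairs differed by between -0.19 and 0.07, and these were chosen after their values were seen. The cause was not tested.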

How the results depend on the processing

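Counts of probesets moved as follows. Higher than every other tissue were 3921, and 2151 with no center term. Higher by at least 2 were 166, and 104 when the dimmer part of the probesets was dropped, where fewer are tested. Lower than every other tissue were 2705, and 238 with no center term, 1084 with the dimmer part dropped, 1402 with the mean of the 2 arrays per tissue and center, 1294 with tissue and center as a random block and 1476 without Oregon. Lower by at least 0.5 were 189 and by at least 1 were 19, and 543 and 93 without the pancreas arrays, where testis is set against fewer tissues. Leaving out each testis array gave 3716 to 3928 higher, 164 to 177 higher by at least 2, 2123 to 3054 lower, 176 to 203 lower by at least 0.5 and 17 to 20 by at least 1. All other alternatives left these counts within 1.5 times.

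With a replicate block, the counts were 3862, 166, 2582, 190 and 19 in the same order, and of the called named genes only LGALS3 lost its call. The labels give these arrays a shared number and name no labeling day or animal, so whether they share either is not known. Their deviations correlated between -0.30 and 0.35 within centers.

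Of 111 called named genes, 90 kept direction and call under every alternative. The direction turned for TNFAIP3 after quantile normalization of all arrays (-0.062) and with the mean of all its probesets (-1.15), and for HIBADH (1.18) and NDUFS7 (0.45) with the mean of all their probesets. With no center term, 18 of them lost their call, PRM1, PGK2, CRABP2, MGST1, AHSP, CIITA and TNF among them, while their differences changed by 0 in this balanced design, so that only the spread behind them grew. The cause of the other moves was not tested. For the lists, spermatogonial genes called higher were between 5 and 12, meiosis genes between 8 and 15 and Sertoli cell genes 7 under every alternative tried, the lowest counts of spermatogonial and meiosis genes with no center term.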
